A study of Mus musculus with 2 samples.

Results

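The MAP kinase cascade genes are the mouse genes named for the tiers of the mitogen-activated protein kinase pathway: Map4k, Map3k, Map2k, Mapk and Mapkapk. They were taken by symbol, kept where the annotation gives a protein_coding transcript, and Map3k7, Map3k8 and Map3k14 were left out. This gave 43 of the 55536 mouse genes measured: 5 MAP4K, 15 MAP3K, 7 MAP2K, 13 MAPK and 3 MAPKAPK genes. The RNA came from primary macrophages that were grown from the bone marrow of C57BL/6J mice and exposed to lipid A at 100 ng/ml, and it was collected 120 minutes later. Lipid A, the lipid end of the endotoxin of Gram-negative bacteria, is what the receptor Tlr4 recognises. It is named in the free text of the labels, whereas the fields for source and treatment give lipoprotein A, a protein. Age and sex are given as not collected. Polyadenylated RNA was sequenced in 2 libraries, replicates 1 and 2 of a single group. They share a donor record and nothing says that they came from different animals, so the spread between them may be technical. No unstimulated cells were analysed here, and every value therefore describes macrophages under stimulation, not what the stimulus changed.

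In this pathway each kinase phosphorylates and switches on the next. MAP4K enzymes act on MAP3K enzymes, which act on MAP2K enzymes, which act on the MAP kinases themselves, the ERK, JNK and p38 enzymes and their relatives. The MAP kinases then act on transcription factors and on further kinases, among them the MAPKAP kinases. In macrophages that sense bacterial products, p38 and its target MAPKAP kinase 2 are known for controlling the stability and translation of cytokine mRNAs, JNK for acting on AP-1 factors and ERK for growth factor and Toll-like receptor signals.

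The point where the MAP2K and MAPK tiers meet is a short loop of the MAP kinase. There a threonine and a tyrosine with 1 residue between them are phosphorylated by the MAP2K. The bases that encode this loop are shown for 6 of the expressed MAP kinases, because they tell the branches apart: the middle codon is glutamate in ERK enzymes, proline in JNK enzymes and glycine in p38. Each sequence is 39 bases of coding sequence, 5′ to 3′ in the sense of the gene (mm10, GENCODE M21), with the 3 codons in capitals.
Mapk3 (chr7:126763443-126763481, plus strand): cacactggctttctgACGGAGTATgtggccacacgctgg
Mapk7 (chr11:61491407-61491445, minus strand): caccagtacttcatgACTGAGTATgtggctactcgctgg
Mapk9 (chr11:49872815-49872853, plus strand): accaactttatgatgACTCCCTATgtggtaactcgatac
Mapk8 (chr14:33392988-33393026, minus strand): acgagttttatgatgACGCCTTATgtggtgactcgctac
Mapk14 (chr17:28728384-28728422, plus strand): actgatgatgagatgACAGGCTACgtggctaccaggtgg
Mapk6 (chr9:75395622-75397584, minus strand, split between 2 exons): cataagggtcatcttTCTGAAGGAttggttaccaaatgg
Mapk6 encodes ERK3, an atypical MAP kinase, and in its loop the capitals spell serine, glutamate and glycine, so the tyrosine of the other enzymes is missing.

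Total gene counts were 33272561 and 50266361 in replicates 1 and 2. Levels are RSEM TPM, a relative abundance that corrects for transcript length, and ± marks the SD of both libraries (n = 2). A count of 0 allows up to 3 counts, or 0.0902 and 0.0597 CPM, counts scaled to library size. This limit is 1-sided, whereas the exact Poisson intervals given below, at 95%, are 2-sided and reach 3.69 for a count of 0. Both the limit and the intervals cover counting error only. The spread between the libraries was 21.5%, as the coefficient of variation from edgeR's common dispersion over 12178 genes. All 10 macrophage markers, Csf1r, Adgre1, Cd68 and Cd14 among them, reached 1 TPM in each library, with summed levels of 20658 and 26579 TPM. The libraries differed in markers of other cells. Of 12 granulocyte markers 5 reached 1 TPM in each library. The list summed to 530.9 TPM in replicate 1 and 75.6 TPM in replicate 2. S100a9 stood at 266 and 41.2 TPM, S100a8 at 167 and 20.5 TPM and Ngp at 67.5 and 3.21 TPM. Ly6g had 4 and 0 counts. Of 6 megakaryocyte markers 2 reached that level, and the list summed to 933 and 238 TPM, nearly all of it Pf4. Of 12 cell cycle genes 11 were higher in replicate 1 by normalised counts, 10 of them by 1.5-fold or more. Of all 10445 genes averaging at least 50 counts, 4858 were higher in replicate 1, 746 of them by that much. The cell cycle list summed to 138 and 86.4 TPM, and Mki67, at 33.6 and 41.6 TPM, went the other way. None of the 8 T cell, 7 stromal, 6 erythroid and 6 mast cell markers was at 1 TPM or more in both libraries, and 1 of 6 B cell markers was. How far these other cells shape the values of the kinases was not tested.

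A level of 1 TPM in each library was reached by 32 of the 43 genes, or 74.4%, against 43.8% of all protein-coding genes. They were 5 of 5 MAP4K, 10 of 15 MAP3K, 7 of 7 MAP2K, 7 of 13 MAPK and 3 of 3 MAPKAPK genes. Only Mapkapk2, Mapk6 and Mapk3 were at 100 TPM or more in both. The median level over the 43 genes was 7.42 TPM, with medians of 4.04 TPM in the MAP3K tier, 5.16 TPM in the MAP4K tier, 6.28 TPM in the MAPK tier, 46.1 TPM in the MAP2K tier and 67.7 TPM in the MAPKAPK tier. The order of the 3 lowest was not stable: in replicate 1 alone the MAP4K median was 3.51 TPM and that of MAP3K 5.09 TPM, and by RSEM's posterior mean TPM that of MAP4K was 11.25 TPM and that of MAPK 7.05 TPM. By kallisto, the second quantification, the MAP3K median was 2.54 TPM. Over all protein-coding genes the median was 0.325 TPM, and over those at 1 TPM or more in both libraries it was 15.4 TPM, against 17.9 TPM for the 32 members at that level. The summed TPM of a tier was 111 and 126 for MAP4K, 114 and 124 for MAP3K, 307 and 296 for MAP2K, 476 and 458 for MAPK and 599 and 718 for MAPKAPK in replicates 1 and 2. In both libraries the 15 MAP3K genes kept, without Map3k7, Map3k8 and Map3k14, thus held less RNA per length together than the single gene Mapkapk2. These are bulk levels, in which fewer cells of a type and less RNA per cell cannot be told apart.

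**Figure D1:**
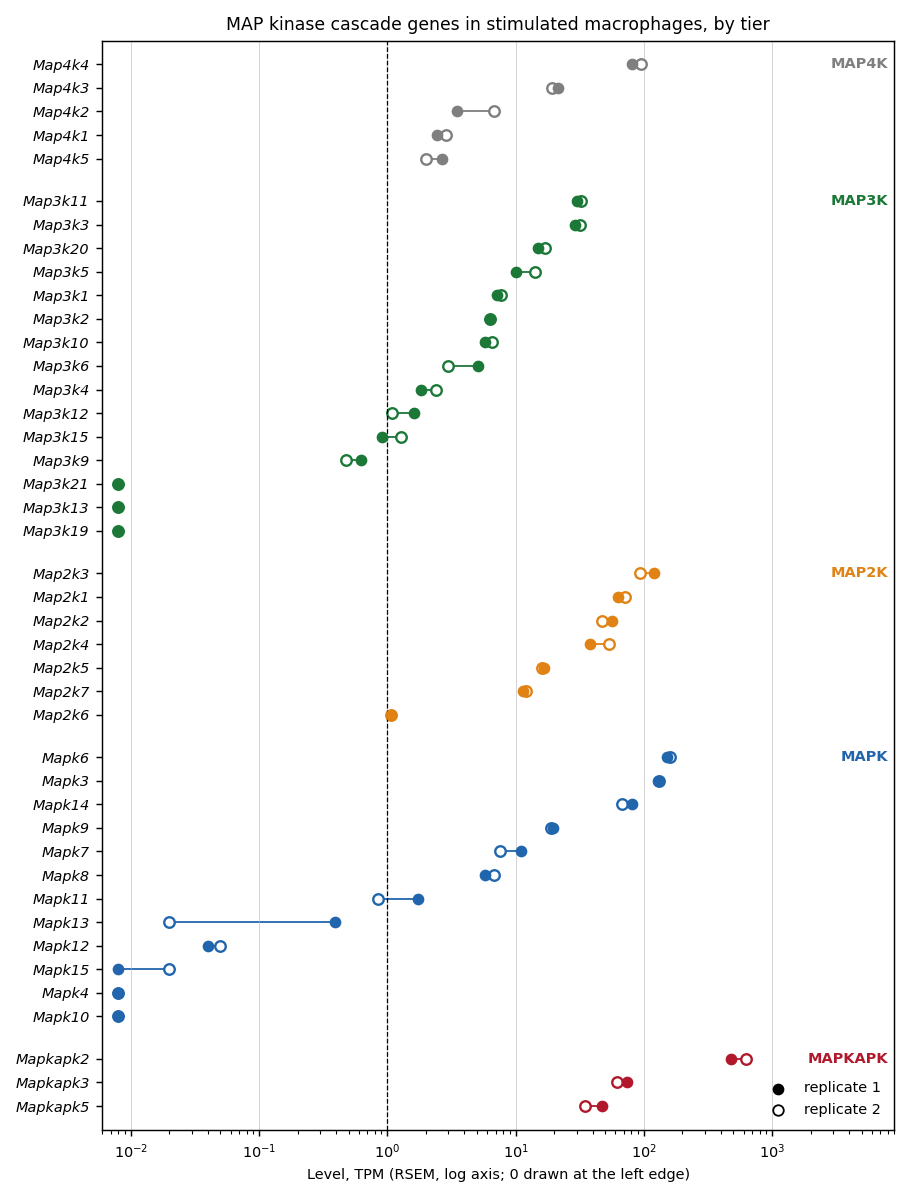
Level of the genes in TPM (horizontal log axis), 1 member not drawn, in replicate 1 (filled) and replicate 2 (open), by tier and in order of the mean, with a dashed line at 1 TPM. Mapkapk2 stood at 478 and 621 TPM, and the MAP3K and MAPK tiers reach down to genes at 0, which are drawn at the left edge.

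In the MAP4K tier, the kinases that relay receptor and stress signals to MAP3K enzymes, Map4k4 held 73.2% and 75.3% of the summed TPM in replicates 1 and 2. It stood at 81.6 and 94.8 TPM, and its product is known as an activator of the JNK branch. Map4k3 followed at 21.3 and 19.4 TPM. The other members were below 7 TPM in both libraries by RSEM TPM: Map4k2, first described as germinal centre kinase, at 3.51 and 6.81 TPM, Map4k1, the haematopoietic progenitor kinase, at 2.45 and 2.89 TPM, and Map4k5 at 2.67 and 2.01 TPM. Map4k2 averaged 5.16 TPM, but 11.25 by the posterior mean TPM of RSEM. Map4k1 and Map4k5 changed places between the libraries. Of the exon bases of Map4k5, 6.36% also lie in Atl1 on the opposite strand, which stood at 1.08 and 0.33 TPM. Whether counting used strand is not given in the sources used here, so reads over such stretches may belong to either gene.

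The MAP3K tier receives the signal and chooses the branch. Map3k11, which encodes the mixed lineage kinase MLK3, and Map3k3, which encodes MEKK3, led the genes counted in it. Map3k7, Map3k8 and Map3k14 are not among those. The means were 31.2 ± 1.32 TPM and 30.2 ± 1.92 TPM (SD, n = 2), a difference within their spread. Map3k11 was the higher of the pair in each library. In replicates 1 and 2 Map3k11 had 30.3 and 32.2 TPM and Map3k3 had 28.8 and 31.6 TPM. Map3k20 encodes ZAK, a sensor of stalled ribosomes, and stood at 15.1 and 16.9 TPM. Map3k5, the oxidative stress kinase ASK1, stood at 10.2 and 14.3 TPM. A middle group held Map3k1 at 7.14 and 7.69 TPM, Map3k2 at 6.35 and 6.31 TPM and Map3k10 at 5.79 and 6.61 TPM, the genes of MEKK1, MEKK2 and the mixed lineage kinase MLK2. Map3k6, the ASK1 relative ASK2, stood at 5.09 and 2.99 TPM, and Map3k4, the MEKK4 gene, at 1.84 and 2.40 TPM.

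The remaining MAP3K genes were near or below 1 TPM. Map3k12, the gene of the kinase DLK that is best known from neurons, stood at 1.62 and 1.08 TPM, with 96 and 134 counts. It shares 1573 exon bases, 17.5% of its own, with Pcbp2 on the opposite strand, and Pcbp2 stood at 411 and 449 TPM, so the level of Map3k12 is uncertain. Map3k15, the ASK3 gene, had 84 and 174 counts and 0.91 and 1.29 TPM, and shares 603 exon bases with Pdha1 on the opposite strand, which stood at 30.8 and 29.5 TPM. Map3k9, the MLK1 gene, stood at 0.62 and 0.48 TPM. Map3k21 and Map3k19 had 0 counts in both libraries, where 3 counts correspond to 0.0246 and 0.0167 TPM for Map3k21 and 0.0475 and 0.0323 TPM for Map3k19. Map3k13 had 0 and 1 counts. Within 1 family the levels were thus spread widely: of the mixed lineage kinase genes Map3k9, Map3k10, Map3k11 and Map3k21, Map3k11 was the highest in both libraries and Map3k21 had no counts.

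All 7 MAP2K genes reached 1 TPM in each library. Those of the ERK branch, Map2k1 and Map2k2 for MEK1 and MEK2, stood at 62.5 and 71.0 TPM and at 56.0 and 47.3 TPM, and summed to 118 TPM in each library. In the p38 branch, Map2k3 stood at 121 and 94.2 TPM and Map2k6, whose product also activates p38, at 1.07 and 1.06 TPM. Map2k3 thus held 99.1% and 98.9% of their sum, and Map2k6 had only 43 and 61 counts, with intervals of 31.1 to 57.9 and 46.7 to 78.4 counts. Map2k3 lies on chromosome 11 from 60932033 to 60952811 on the plus strand (mm10). Of the JNK branch, Map2k4, whose product can also act on p38, stood at 38.2 and 54.0 TPM and Map2k7 at 11.5 and 12.1 TPM. Map2k5, which activates ERK5, stood at 16.7 and 16.0 TPM. Map2k7 shares 35.2% of its exon bases with Gm49320, an annotated gene on the same strand with 0 and 1.62 counts, so some of its reads could have been given to that gene. The order from Map2k3 through Map2k1 was the same in both libraries, and below it Map2k2 and Map2k4 changed places.

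The MAP kinases fell into genes at 5 TPM or more and genes near 0, with Mapk11 between them. Mapk6, the ERK3 gene, was the highest at 152 and 161 TPM. A processed pseudogene, Gm49037, matches Mapk6 without mismatch over 384 bases and had 0 and 64.4 counts, against 12335 and 19517 counts for Mapk6. Mapk3, the ERK1 gene, stood at 130 and 131 TPM. Among p38 genes, Mapk14, the gene of p38 alpha, stood at 80.6 and 68.1 TPM and held 97.4% and 98.7% of the sum of the 4 genes. Mapk14 spans chromosome 17 from 28691329 to 28748406 on the plus strand. Mapk11, for p38 beta, had 1.74 and 0.84 TPM, from 86 and 62 counts. Mapk13, for p38 delta, had 0.39 and 0.02 TPM, from 8 and 1 counts. The intervals of these counts, 3.45 to 15.8 and 0.0253 to 5.57, overlap. Mapk12, for p38 gamma, had 1 and 3 counts and 0.04 and 0.05 TPM, but 0.112 and 0.354 TPM by kallisto.

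Of the JNK genes, Mapk9 for JNK2 stood at 19.8 and 19.0 TPM and Mapk8 for JNK1 at 5.76 and 6.79 TPM. Mapk9 held 77.4% and 73.7% of their sum, to which Mapk10, the JNK3 gene known mainly from the nervous system, added nothing, with 0 counts in both libraries. Mapk7, the ERK5 gene, stood at 11.1 and 7.58 TPM. The atypical kinase genes other than Mapk6 were all but absent from the counts. Mapk4, which encodes ERK4, had 0 counts in both libraries, where 3 counts correspond to 0.0435 and 0.0295 TPM, and Mapk15 had 0 and 1 counts. kallisto listed Mapk4 above those limits, at 0.0772 and 0.0618 TPM. Summed by branch, the MAP kinases stood at 82.8 and 69.0 TPM for p38 and at 25.5 and 25.8 TPM for JNK in replicates 1 and 2. The MAP2K genes had 118 and 118 TPM for ERK, 122 and 95.2 TPM for p38 and 49.7 and 66.1 TPM for JNK. In both libraries, then, the JNK branch had a lower summed TPM than the p38 branch in each of these tiers. Map2k4, whose product can also act on p38, was counted under JNK only.

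Mapkapk2, the gene of MAPKAP kinase 2, was the highest of the 43 genes in both libraries, at 478 TPM in replicate 1 and 621 TPM in replicate 2, from 27710 and 53047 counts. Its mean of 549 ± 101 TPM (SD, n = 2) ranked 225 among the 21901 protein-coding genes. MAPKAP kinase 2 is phosphorylated by p38 and acts on the mRNA-binding protein tristetraprolin, whose gene Zfp36 stood at 208 and 153 TPM. Mapkapk2 lies on chromosome 1 from 131053700 to 131097826 on the minus strand and held 79.8% and 86.6% of the sum of its tier. Mapkapk3, for the close relative MAPKAP kinase 3, stood at 74.1 and 61.4 TPM. Mapkapk5, whose product can bind ERK3, stood at 46.9 and 35.1 TPM, and 56.5% of its exon bases also lie in Adam1a on the same strand, an annotated gene with 21.8 and 8.68 counts.

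The libraries were compared as replicates, by the log2 ratio of normalised counts in replicate 1 over replicate 2 for the 35 members whose counts averaged at least 50. There is 1 library on each side, so these ratios carry no test. Their median was -0.08, against -0.03 over the 10445 genes of that depth, and the median absolute ratio was 0.23, against 0.24. In replicate 1, 2 of the 35 genes, or 5.71%, were higher by 1.5-fold or more, against 7.14% of all genes, and 4, or 11.4%, were lower, against 7.46%. The higher ones were Mapk11 (0.90) and Map3k6 (0.60). The lower ones were Map4k2 (-0.93), Map3k15 (-0.62), Map2k4 (-0.60) and Map3k5 (-0.59), and Mapkapk2 fell short of the threshold at -0.51. On the log2 scale of TPM + 1, only Map3k6 was higher and Map4k2 lower by that much, a split of 1 and 1. By kallisto counts Map3k6 (0.54), Map3k15 (-0.58) and Map3k5 (-0.58) fell just short. In all, 12 of the 35 genes had a positive and 23 a negative ratio by normalised counts, against 4858 and 5587 of the 10445 genes. On the TPM scale the 35 genes had 17 positive and 18 negative ratios. Over all genes the TPM scale had a median of 0.09, so values on it are to be read against that.

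**Figure D2:**
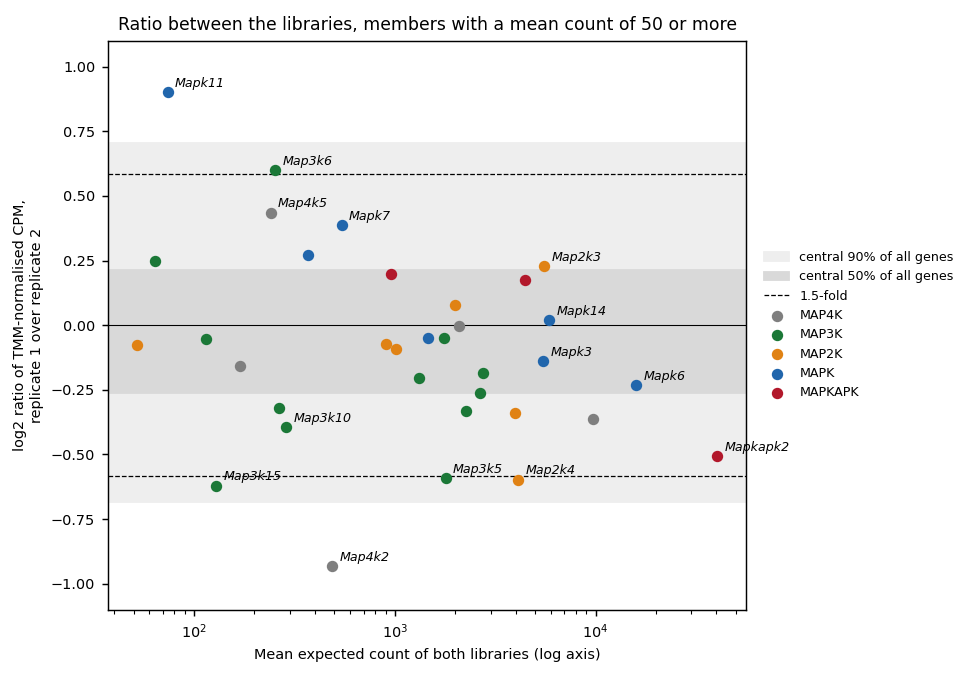
Log2 ratio of normalised counts, replicate 1 over replicate 2, against the mean expected count (log axis) for members averaging at least 50 counts, with 1 member not drawn, coloured by tier, with the range of all genes in grey and 1.5-fold as dashed lines. Mapk11 at 0.90 and Map4k2 at -0.93 lie outside the wider band, the central range of all genes, and the other genes lie inside it.

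Mapk8 shows how the 2 scales can part. It had 348 and 388 counts, a log2 ratio of 0.27 by normalised counts, but 5.76 and 6.79 TPM, a ratio of -0.20 on the TPM + 1 scale. RSEM gave 27.0% of its TPM in replicate 2 to Mapk8-209, a processed transcript of 533 bases, and 0% in replicate 1, while kallisto gave that transcript 0% in both. By kallisto counts the ratio of Mapk8 was 0.28.

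The levels by RSEM and by kallisto were also compared. Averaged over the libraries, 32 genes were at 1 TPM or more by both, and 31 of these are among the 32 at that level in each library. Their ratio of RSEM to kallisto had a median of 1.15, against 1.17 over all such protein-coding genes. Of the 32 genes 1 was 1.5-fold or more apart, a share near that of all such protein-coding genes, 347 of 9730 or 3.57%. That gene was Map3k6, 1.59-fold higher by RSEM. RSEM gave 52.3% and 42.1% of its TPM to Map3k6-204, a processed transcript of 1062 bases, and kallisto gave it 25.4% and 0%. The full coding transcript, Map3k6-201, stood at 2.43 and 1.52 TPM by RSEM and at 2.53 and 1.56 TPM by kallisto.

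Which transcript carries a gene's RNA was described for the 26 genes at 5 TPM or more with more than 1 annotated transcript. The median share of the leading transcript was 75.0% of its gene, against 79.1% over 7033 such protein-coding genes. None of the 26 was led by a transcript of another type than protein_coding, against 5.23% of the 7033. In 10 genes the leader held over 90%, with Mapkapk2-201 at 100% in both libraries, Map2k3-201 at 98.6% and 98.9% and Mapk3-202 at 98.4% and 99.0%. In 5 the leader held under 50%, among them Mapk8 (39.3% and 24.0%), Map4k4 (35.7% and 40.2%), Mapkapk5 (39.2% and 42.4%) and Mapk9 (40.6% and 41.8%). Protein_coding transcripts of every kind made up a median of 94.6% and 94.8% of the TPM, against 97.3% and 97.3% over the 7033 genes, with Mapk7 lowest in replicate 1 at 64.6% and Map4k2 lowest in replicate 2 at 58.6%.

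**Figure D3:**
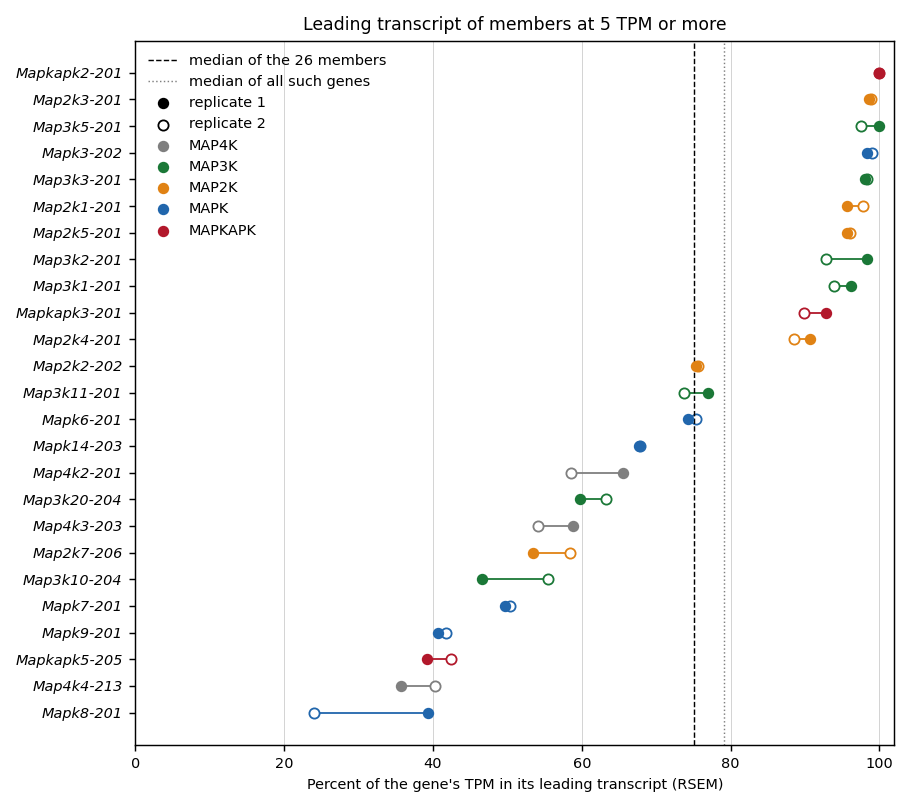
Percent of the gene's TPM in its leading transcript for these genes, 1 not drawn, in replicate 1 (filled) and replicate 2 (open), coloured by tier, with the median of all 26 (dashed) and of all such genes (dotted). The shares run from 24.0% for Mapk8-201 in replicate 2 to 100% for Mapkapk2-201.

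Several transcripts of a gene did not always mean several annotated proteins. Mapk6-201, the leader of Mapk6, and Mapk6-202 differ in the first exon, which is non-coding, encode the same 720 residues and held 93.7% and 95.2% together. In Map4k4, by contrast, Map4k4-213 and Map4k4-202 encode 1221 and 1238 residues and held 35.7% and 40.2% and 34.1% and 30.9%. Mapkapk5-205, the leader of Mapkapk5, has 9 exons and encodes 324 residues, against 14 exons and 471 residues in Mapkapk5-204, which held 21.2% and 26.9%. Transcripts of Adam1a and of Gm42878 match Mapkapk5-205 at 99.4% identity over 940 of its 975 bases. Reads over that stretch could have been given to any of these genes, so its share is uncertain.

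Map3k20 was divided between a pair of forms that share the kinase domain and end differently. Map3k20-204, of 454 residues, ends in a last exon of 5514 bases that starts at 72401989 on chromosome 2, and held 59.7% and 63.2% of the TPM by RSEM and 56.1% and 61.3% by kallisto. Map3k20-201, of 802 residues, reads on to a last exon at 72441232 and held 35.7% and 33.7%. These are the forms known as ZAK beta and ZAK alpha, of which the long alpha form binds ribosomes. Map3k10 was likewise led by a short form. Map3k10-204, with 2 exons and 289 residues, held 46.6% and 55.5% by RSEM and 45.9% and 62.0% by kallisto. The form of 940 residues held 26.1% and 25.8% by RSEM and 10.5% and 13.8% by kallisto. A form of 942 residues, Map3k10-202, held 17.2% and 8.75% by kallisto but 0.07% and 0% by RSEM. Map3k10-205, annotated as retaining an intron, held 27.2% and 15.8% by RSEM.

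Mapk14 differed at its start. Mapk14-203, which begins in a first exon of 115 bases at chr17:28692568-28692682, held 67.7% and 67.8% of the TPM by RSEM and 58.6% and 55.9% by kallisto. Transcripts that begin in the exon upstream, between 28691329 and 28691855, held 25.6% and 31.2% by RSEM and 32.9% and 38.9% by kallisto. In Mapk14-203 the annotated coding sequence starts in exon 2 and has 283 codons, against 360 codons in Mapk14-201 and Mapk14-202, which start in exon 1. Its codon for the threonine of the activation loop, ACA in the sequence shown for Mapk14, is codon 103. The share rests on reads that reach the first exons, and the files hold no coverage by exon.

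Mapk9, Mapk8 and Mapk14 each carry a pair of exons of equal length of which a transcript uses one or the other. In the JNK genes the pair is known to separate alpha and beta forms, which differ in how they bind substrates, and in p38 alpha of human cells it separates the forms first described as CSBP2 and CSBP1. Both exons of each pair are printed because they set these forms apart. All are coding exons, 5′ to 3′ in the sense of the gene (mm10), and capitals mark the bases that differ between the exons of a pair.
Mapk9 first (chr11:49873836-49873907, plus strand): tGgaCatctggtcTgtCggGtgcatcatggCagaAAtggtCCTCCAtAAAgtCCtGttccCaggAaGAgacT
Mapk9 second (chr11:49874264-49874335, plus strand): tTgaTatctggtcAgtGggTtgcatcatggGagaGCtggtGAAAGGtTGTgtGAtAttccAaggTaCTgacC
Mapk8 first (chr14:33390673-33390744, minus strand): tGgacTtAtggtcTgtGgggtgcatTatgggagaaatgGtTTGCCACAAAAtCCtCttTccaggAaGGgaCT
Mapk8 second (chr14:33390242-33390313, minus strand): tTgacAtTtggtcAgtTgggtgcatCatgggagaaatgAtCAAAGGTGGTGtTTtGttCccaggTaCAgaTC
Mapk14 first (chr17:28737011-28737090, plus strand): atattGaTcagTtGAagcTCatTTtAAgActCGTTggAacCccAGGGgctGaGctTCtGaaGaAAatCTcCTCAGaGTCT
Mapk14 second (chr17:28740680-28740759, plus strand): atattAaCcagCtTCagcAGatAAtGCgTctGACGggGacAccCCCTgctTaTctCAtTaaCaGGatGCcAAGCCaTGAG
The exons of a pair differ at 25 of 72 bases in Mapk9, 27 of 72 in Mapk8 and 41 of 80 in Mapk14, or 65.3%, 62.5% and 48.8% identity.

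The JNK genes were counted mostly with the second exon. Shares are of the TPM of protein_coding transcripts that hold either exon in full. In Mapk9 the second exon held 89.3% and 95.6% in replicates 1 and 2 by RSEM, and 88.3% and 88.4% by kallisto. In Mapk8 it held 73.0% and 79.4% by RSEM and 81.6% and 87.2% by kallisto. Left out of these shares is Mapk8-209, which begins inside the second exon and held 27.0% of the gene in replicate 2 by RSEM. Mapk14 was counted mostly with the first exon, at 90.2% and 88.9% by RSEM and 90.0% and 88.6% by kallisto. Both quantifications and both libraries thus put the same exon ahead in each of the 3 genes. For Mapk8 the second exon rests on a gene of 348 and 388 counts, and its share moved more between the quantifications than that of Mapk14.

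**Figure D4:**
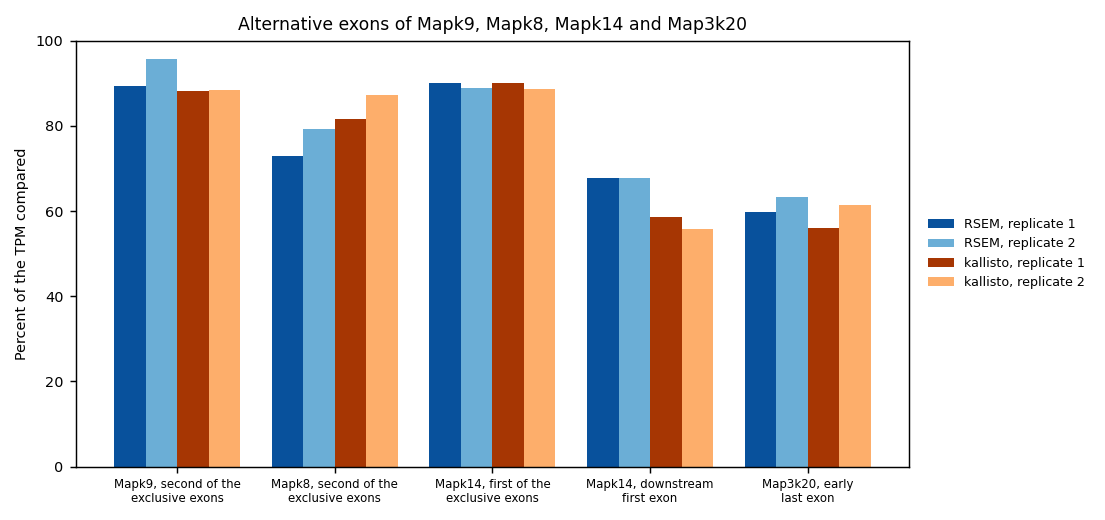
Percent of TPM with 1 of the alternative exons, in 5 cases, by RSEM (blue) and kallisto (orange) in replicates 1 and 2. For the first 3 cases the percent is of protein_coding transcripts with either exclusive exon in full. For the first exon of Mapk14 and the last exon of Map3k20 it is of the gene. Every bar is above 50%.

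Around the named tiers, genes of the pathway were counted in lists. All the list counts below are to be set beside the shares over all genes. In both libraries 43.8% of all protein-coding genes were at 1 TPM or more. Among all genes averaging at least 50 counts, 7.14% were higher and 7.46% lower in replicate 1 by 1.5-fold or more. The lists are small, and no difference from these shares was tested. Of 21 genes for Ras proteins, their regulators and the Raf kinases, which feed the ERK branch, 19 were at 1 TPM or more in both libraries, led by the adaptor gene Grb2 at 360 and 331 TPM and by Nras at 74.1 and 71.6 TPM. The Raf genes Araf and Braf stood at 39.7 and 32.7 TPM and at 11.1 and 9.81 TPM. Of the 20 with a mean count of at least 50, none was higher in replicate 1 by 1.5-fold or more and 3 were lower, Rasgrp3 most at 2.51 and 6.14 TPM. Of 17 scaffold and docking genes 11 passed 1 TPM, with Iqgap1 at 325 and 352 TPM and Pea15a, whose product holds ERK in the cytoplasm, at 324 and 247 TPM. One of them, Ksr1, the scaffold of Raf and MEK, was higher in replicate 1 by 1.5-fold or more, at 2.42 and 0.96 TPM.

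The kinases downstream of ERK and p38 other than MAPKAP kinases passed 1 TPM in 7 of 8 cases, with the ribosomal S6 kinase gene Rps6ka3 at 41.9 and 53.9 TPM and Mknk1 at 41.9 and 44.6 TPM. By normalised counts all 7 had a negative ratio, against 5587 of all 10445 genes of that depth, but that of Rps6ka4 was only -0.0055. In TPM Rps6ka1 (32.1 and 31.3) and Rps6ka4 (29.1 and 26.4) were higher in replicate 1. By counts 2, Rps6ka5 (-1.02) and Rps6ka2 (-0.67), were lower in replicate 1 by 1.5-fold or more, against 7.46% of all genes. Of 16 substrates and effectors 15 passed 1 TPM. Zfp36 led, followed by Max at 94.9 and 115 TPM, and 3 of the 15 were 1.5-fold or more apart by normalised counts. The AP-1 gene Fos, at 20.2 and 10.4 TPM, and Srf, at 20.9 and 10.9 TPM, were higher in replicate 1. The AP-1 gene Jun was lower, at 19.0 and 33.6 TPM. Related kinases without a Map symbol passed in 9 of 11 cases, with Stk4 at 63.2 and 87.3 TPM and Stk24 at 41.7 and 46.3 TPM. Phosphatases other than the dual-specificity family passed in 7 of 10 cases, with Ppm1a at 69.3 and 74.5 TPM and Ppp2cb at 60.2 and 61.6 TPM, and none of the 7 was 1.5-fold or more apart, Ptpn7 being furthest at 6.80 and 7.70 TPM.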

How the data were processed

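Polyadenylated RNA of 2 libraries of 1 group was analysed, grouped by the labels. Per the file headers, the deposited gene and transcript tables hold RSEM expected counts, TPM and, for transcripts, their percent of the gene, and kallisto tables hold estimated counts and TPM. Per the labels and the deposited descriptions the assembly was mm10 and the annotation GENCODE M21. The aligner, program versions and use of strand are not given in the sources used here. The members and lists were chosen with earlier results of these data known.

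Expected counts were rounded. Entries that are not mouse genes were left out of library sizes, and 86 genes without a symbol, with 0.0120% and 0.00961% of counts, stayed unnamed. The values of 1 member and 1 list gene are not reported here, though counts and medians include them. Ratios are TMM-normalised CPM, and the spread is the common dispersion of edgeR 4.0.16 (R 4.3.3) with an intercept, over genes that reached 10 counts in each library. The fit was tested on simulated data. kallisto values were summed by gene. Transcript places, overlaps and sequences came from GENCODE M21, with matches of 95% identity or more over 200 bases or more by BLAST 2.17.0, and loop codons were read from transcripts since no protein table was used here. Named genes are the 3 highest of each tier, the one furthest apart, those past a threshold, under 1 TPM or with the lowest leading shares, and in other lists the 2 highest and the one furthest apart. The Raf genes, Rps6ka1, Rps6ka2, Rps6ka4, Fos, Srf and the other members were added after their values were seen. Csf1r, Adgre1, Cd14 and Ly6g are also outside the rule, and some markers and cell cycle genes that it picks are not named. Alternatives were DESeq2 1.42.0 size factors, other minimums, folds and pseudocounts, kallisto, posterior means, TPM without mitochondrial genes and each library alone. Python 3.11.15, pandas 2.3.3 and matplotlib 3.10.9 did the rest.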

Additional observations from a re-analysis of the deposited data

How the results depend on the processing

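No value changed direction past a threshold under any alternative run. The count of 32 genes at 1 TPM or more in both libraries ran from 25 with a minimum of 5 TPM to 34 with posterior mean TPM. The median level of 7.42 TPM was 6.71 by kallisto, 10.3 by posterior mean TPM and 7.92 without mitochondrial genes. The 6 genes 1.5-fold or more apart between libraries became 2 on the TPM + 1 scale, 3 at TPM + 0.1, 3 by kallisto counts, 0 at 2-fold, 4 at a mean count of 200 or more and 8 with no filter. Of the 35 ratios, 7 changed sign between normalised counts and TPM, all of them within the threshold. The 1 gene apart between quantifications became 0 at 5 TPM, 3 with any level above 0 and 0 at 2-fold. The leading share of 75.0% was 73.2% by kallisto, 74.8% at 1 TPM, 75.5% at 20 TPM, 73.5% by posterior means, 74.5% to 74.8% in single libraries and 82.6% with transcripts grouped by coding sequence, a grouping added after seeing the data. The count of genes led by another type, 0, was 1 in each single library: Map3k6 in replicate 1 and Mapk8 in replicate 2. The median share of coding transcripts, 95.2%, was 94.1% by kallisto. The causes were not tested. Of single-gene values, 170 moved by less than the spread between replicates and 38 by more. Of the levels, Map4k2 (11.25 TPM by posterior mean, 5.16 as reported) and Map3k6 (2.54 by kallisto, 4.04 as reported) moved by over 1.5 times. Of the tiers' medians and counts, 117 held within the spread or 1.5 times and 18 moved further. No paired analysis was possible because the labels give 1 group. With 1 group of 2 libraries no difference could be tested, and genes under about 50 counts, such as Mapk13, have wide counting intervals.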
